A study of Homo sapiens with 12 samples.

Results

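The genes described here are 10 core genes of nucleotide excision repair, measured by RNA sequencing in HaCaT, an immortalised human keratinocyte line. They were chosen by name (XPC, DDB1, DDB2, ERCC6, ERCC8, ERCC3, ERCC2, XPA, ERCC1 and ERCC5), not by their measured values, though with earlier results of these data known. All 10 were found among the 16271 genes of the count table. The 12 libraries of total RNA fall into 4 groups of 3: wild type cells and cells labelled as knockout of VDR, the gene of the vitamin D receptor, both without treatment or after 8 h of 1,25(OH)2D3, which is vitamin D in its active, hormonal form. All cells were grown in DMEM with fetal bovine serum, and the labels place the replicates in wells of a culture plate, so p-values measure the spread between such wells. Neither the dose and vehicle of the hormone nor the edit and how many clones were used is given in the sources used here. If the knockout cells are 1 clone, loss of VDR and other differences of that clone cannot be told apart.

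Nucleotide excision repair removes bulky DNA damage, above all the pyrimidine dimers that ultraviolet light makes in skin. Damage is found either anywhere in the genome, by XPC with the DDB1-DDB2 complex, or where RNA polymerase has stalled, by ERCC6 (also known as CSB) and ERCC8 (CSA). Both branches pass the site to the helicase complex TFIIH and to XPA, after which the nucleases ERCC1-ERCC4 and ERCC5 cut out the damaged strand and polymerases fill the gap. Inherited defects in several of these genes cause xeroderma pigmentosum or Cockayne syndrome. Levels of RNA do not measure the proteins or the repair itself.

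Libraries held 11.5 to 16.0 M counts (M, 1e6 counts), and single counts of the 10 genes ran from 118 (ERCC2) to 2565 (XPA). VDR, the targeted gene, still gave RNA in every library. It stood at 103 ± 3.81 CPM (counts per 1e6 counts of the library, scaled by TMM; SD, n = 3) in wild type cells without hormone and at 71.0 ± 3.62 CPM with it. In the cells labelled knockout it stood at 77.6 ± 4.07 and 82.8 ± 3.02 CPM, so VDR was lower than in wild type without hormone (log2 fold change -0.41, adjusted p = 5.03e-05) and higher with it (0.22, adjusted p = 0.00796; edgeR quasi-likelihood F test, p-values adjusted by Benjamini-Hochberg over all genes, called below 0.05). CYP24A1, the textbook target gene of the receptor, rose by 5.13 on the log2 scale with hormone in wild type cells (adjusted p = 7.34e-11), while in knockout cells it missed the threshold (-0.47, adjusted p = 0.106). Untreated wild type replicate 3 stood apart from its group, at -32.5 on the first principal component against -54.3 and -55.7, and members' results that rest on it are given with and without it. The 8 keratinocyte markers all had counts, and their summed level was 2089.6 to 2437 CPM in untreated wild type and 1230 to 1288 CPM in untreated knockout libraries. Not every marker followed that sum: DSG3 stood at 59.9 to 64.4 CPM in untreated wild type and 119 to 138 CPM in untreated knockout libraries. These groups overlapped for CDH1 (79.2 to 111 and 91.8 to 106 CPM) and for PERP (125 to 172 and 134 to 144 CPM). The markers' part in the differences between genotypes was not tested. None of 4 immune markers had a row in the table, and 4 of 12 markers of fibroblasts, endothelial cells and melanocytes did, at a summed level of at most 18.3 CPM a list.

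The level of the 10 genes was compared per kilobase of each gene's longest principal transcript, as CPM per kb. In untreated wild type cells XPA was the highest at 135 ± 15.8 CPM per kb (SD, n = 3), followed by ERCC3 at 52.2 ± 1.11 and DDB2 at 39.1 ± 3.56. DDB1 (23.5 ± 0.539) and ERCC8 (22.7 ± 6.02) came next and did not differ beyond their spread. ERCC1 (10.7 ± 0.478), ERCC6 (9.32 ± 1.55) and XPC (9.24 ± 0.727) lay close together, with ranges of ERCC6 that overlapped those of both others. ERCC5 (7.68 ± 0.523) and ERCC2 (2.97 ± 0.123 CPM per kb) were the lowest. In untreated knockout cells DDB2, at 69.3 ± 3.80 CPM per kb, stood above ERCC3 at 44.7 ± 0.253, and ERCC1, at 5.01 ± 0.301, had moved below XPC at 8.91 ± 0.780. XPA was first and ERCC2 last in each of the 4 groups, also when the length of all annotated exons was used, which changed the order of the middle genes. By that length ERCC1 was at 7.35 and XPC at 7.38 CPM per kb in untreated wild type cells, so ERCC1 was not above XPC there.

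**Figure D1:**
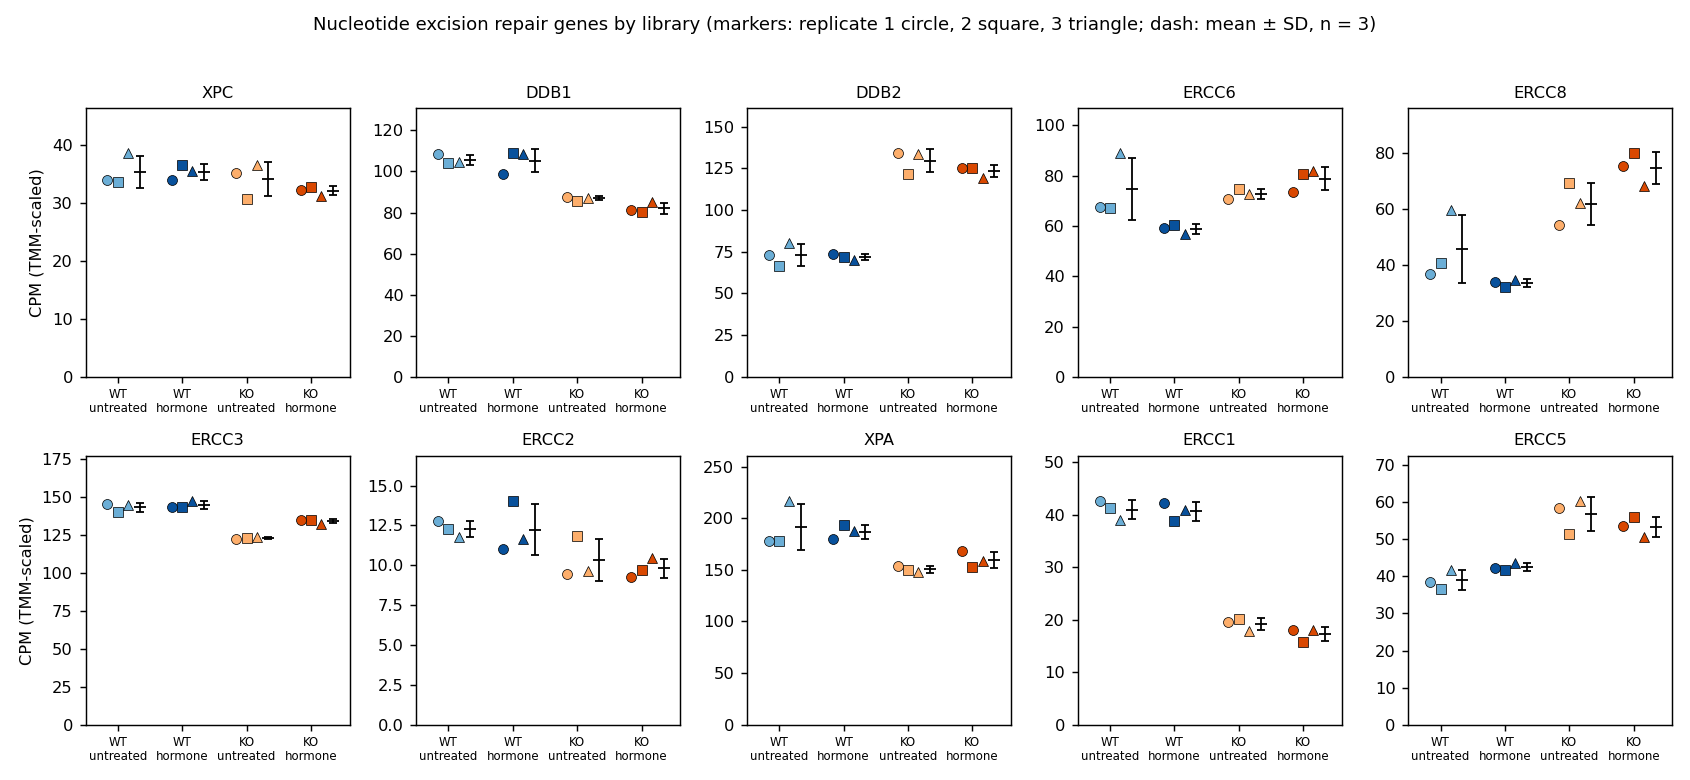
Level of each of the 10 genes in the 12 libraries, in CPM scaled by TMM, from 0 on each vertical axis; circles, squares and triangles are replicates 1, 2 and 3, and the dash with bars is the group mean ± SD (n = 3). DDB2 and ERCC5 lie higher and ERCC1 lower in all 6 knockout libraries than in all 6 wild type libraries, and ERCC6 and ERCC8 are lowest in treated wild type cells.

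Whether the 2 genotypes differed in these genes was asked separately without and with hormone, in comparisons that share no library. Without hormone 3 of the 10 genes were higher in knockout cells (DDB2, ERCC5 and ERCC8), 4 were lower (ERCC1, XPA, DDB1 and ERCC3) and 3 did not pass the test. Of all 14676 genes tested, 69.7% were called in this comparison, 35.5% higher and 34.2% lower, so 7 of 10 is near the background. With hormone 4 genes were higher (ERCC8, DDB2, ERCC6 and ERCC5) and 4 lower (ERCC1, DDB1, ERCC2 and XPA), against 75.9% of all genes called, 38.4% higher and 37.4% lower. The groups did not overlap for 6 of the 10 genes without hormone, where 69.1% of all genes did not, and for 10 with hormone, where 80.9% did not. Median log2 fold changes of the 10 genes were -0.14 and -0.12, and those of all genes 0.01 and 0.02. When libraries were scaled by their total count only, the median of all genes moved to 0.13 in both comparisons, and the members split into 3 higher and 3 lower without hormone and 4 higher and 2 lower with it.

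Recognition of damage anywhere in the genome starts with the DDB1-DDB2 complex, in which DDB2 binds the lesion and DDB1 links it to the CUL4 ubiquitin ligase. DDB2 (chr11:47214465-47239240, plus strand, GENCODE v29 on GRCh38) stood at 73.0, 66.6 and 79.9 CPM in untreated and 73.7, 71.6 and 70.3 CPM in treated wild type libraries. In knockout libraries it stood at 134, 121 and 133 CPM untreated and 125, 125 and 119 CPM treated. Every knockout library was above every wild type library. DDB2 was 1.77-fold higher in knockout cells without hormone (log2 fold change 0.82 ± 0.07 SE, adjusted p = 4.17e-08) and 1.72-fold higher with it (0.78 ± 0.07, adjusted p = 5.33e-08, edgeR quasi-likelihood). Over the alternatives tried its log2 fold change ran from 0.76 to 0.95 without hormone and from 0.75 to 0.89 with it, and every one passed the test. Its hormone response did not pass the test in either genotype, with 95% intervals of the log2 fold change of -0.19 to 0.13 in wild type and -0.23 to 0.08 in knockout cells.

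The DNA before a DDB2 start is shown because this gene was the most raised of the 10 without hormone. This window was picked because it holds a hexamer to which 1 receptor of a vitamin D receptor dimer can bind. The stretch before another DDB2 start, at chr11:47214304-47214453, held CCAAT boxes and no such hexamer. The stretch shown lies at chr11:47214792-47214941 on the plus strand, before one of the annotated starts and inside the gene span given above. It comes from RefSeq (GRCh38.p14). Capitals mark the hexamer AGGTCA, the E2F core TTCCCGC, which overlaps a GC box, and the other GC boxes (GGGCGG or its complement CCGCCC).
DDB2: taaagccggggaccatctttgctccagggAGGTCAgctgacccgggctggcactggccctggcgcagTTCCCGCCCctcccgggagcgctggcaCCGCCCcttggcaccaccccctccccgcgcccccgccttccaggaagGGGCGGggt
Windows of 250 bases before to 50 after a start were searched on both strands, 35116 in all and 14 of the 10 genes, some of which have several starts. A receptor hexamer (AGGTCA or GGTTCA) was found in 20.9% of all windows and in those of DDB2, ERCC1 and ERCC6. A pair of hexamers 3 bases apart, the arrangement the receptor prefers, was in 0.0171% of windows and in none of the 10 genes. A GC box was in 45.0% of all windows and in those of 9 of the 10 genes, and an E2F core (TTCCCGC or TTTCGCG) in 7.70% and in those of DDB2 and XPC. A match is a description of the letters and does not show that a factor binds there.

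DDB1 (chr11:61299451-61342596, minus strand) moved the other way from its partner. It stood at 109, 104 and 105 CPM in untreated and 98.6, 109 and 108 CPM in treated wild type libraries, against 87.6, 85.8 and 87.2 CPM in untreated and 81.1, 80.1 and 85.1 CPM in treated knockout libraries. All knockout libraries lay below all wild type libraries. The difference was 1.22-fold without hormone (log2 fold change -0.28 ± 0.06, adjusted p = 0.000854) and 1.28-fold with it (-0.36 ± 0.06, adjusted p = 8.06e-05). TKFC, listed under its old symbol DAK, lies on the other strand and shares 3.73% of DDB1's exon bases; it was lower in knockout cells too (-0.29 and -0.67).

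XPC (chr3:14145147-14178783, minus strand), the lesion sensor that starts global repair, was the one gene of the 10 that passed the test in none of the 5 comparisons. Its libraries ran from 33.6 to 38.6 CPM without hormone and from 34.0 to 36.6 CPM in treated wild type cells, and from 30.8 to 36.5 and from 31.3 to 32.8 CPM in knockout cells. The treated groups did not overlap, although the difference missed the threshold (log2 fold change -0.14 ± 0.09, adjusted p = 0.153). Its 95% intervals were -0.23 to 0.13 for the untreated and -0.32 to 0.04 for the treated comparison of genotypes. LSM3, an RNA-processing gene on the opposite strand that shares 6.63% of XPC's exon bases, was higher in knockout cells in both (0.64 and 1.13). On that strand AC093495.1 (23.8%) and AC090004.1 (8.61%) share more of XPC's exon bases, and neither has a row in the count table.

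The 2 genes that detect stalled RNA polymerase, ERCC8 and ERCC6, were the ones of the 10 whose hormone response differed between genotypes by the test given further on. ERCC8 (chr5:60873831-60945073, minus strand) encodes a substrate receptor of a ubiquitin ligase. It stood at 37.0, 40.6 and 59.6 CPM in untreated and 34.0, 32.0 and 34.6 CPM in treated wild type libraries. In knockout cells it stood at 54.4, 69.4 and 62.4 CPM untreated and 75.6, 80.1 and 68.5 CPM treated. The lowest treated knockout library (68.5 CPM) was far above the highest treated wild type library (34.6 CPM), while the untreated groups overlapped through wild type replicate 3. With hormone ERCC8 was 2.23-fold higher in knockout cells (log2 fold change 1.16 ± 0.15, adjusted p = 7.03e-06), and over the alternatives the log2 fold change ran from 1.10 to 1.26 and passed in each. Without hormone it was 1.36-fold higher (0.44 ± 0.15, adjusted p = 0.0157). That call was lost without untreated wild type replicate 1 or 2 (adjusted p = 0.0587 and 0.0682) or untreated knockout replicate 2 (0.0648), and without wild type replicate 3 the log2 fold change was 0.67 (adjusted p = 2.17e-06). The pseudogene GNL3LP1 shares 28.3% of ERCC8's exon bases on the same strand and was not analysed here.

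ERCC6 (chr10:49455368-49539538, minus strand) encodes a chromatin-remodelling ATPase that binds the stalled polymerase. It stood at 67.7, 67.3 and 89.0 CPM in untreated and 59.4, 60.4 and 56.6 CPM in treated wild type libraries. In knockout cells it stood at 70.6, 74.6 and 72.5 CPM untreated and 73.6, 80.9 and 82.1 CPM treated. The treated groups did not overlap and the untreated ones did. With hormone ERCC6 was 1.34-fold higher in knockout cells (log2 fold change 0.42 ± 0.09, adjusted p = 0.000621), and without hormone it did not pass (-0.04 ± 0.09, 95% interval -0.24 to 0.16, adjusted p = 0.711).

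What the hormone did was asked in each genotype. In wild type cells 0 of the 10 genes rose and 2, ERCC6 and ERCC8, fell, while 24.5% of all genes were called, 11.5% higher and 13% lower, so the share is near the background. ERCC6 fell by 0.35 ± 0.09 on the log2 scale (adjusted p = 0.0143) and ERCC8 by 0.45 ± 0.15 (adjusted p = 0.0435). For both genes every treated library was below every untreated one, and 39.2% of all genes had no overlap in this comparison, but the untreated values were spread by replicate 3. Without that library 0 of the 10 genes were called: ERCC6 was at -0.19 (adjusted p = 0.052) and ERCC8 at -0.20 (adjusted p = 0.141). ERCC6 was also lost without treated replicate 3 (adjusted p = 0.0732), and ERCC8 without treated replicate 1, 2 or 3 (adjusted p = 0.0981, 0.125 and 0.0989). Both calls were lost when the 2 wild type groups were fitted alone (adjusted p = 0.07 and 0.0862), and that of ERCC8 also with library size alone (0.0561) or limma (0.0636). Of the other 8 genes ERCC5 had the largest value (0.12 ± 0.08, adjusted p = 0.289), and the groups of all 8 overlapped.

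In knockout cells 0 of the 10 genes were called with hormone in edgeR's quasi-likelihood test or in DESeq2, against 2.55% of all genes (0.913% higher and 1.64% lower). Across all genes 3128 had an unadjusted p below 0.05 in edgeR. ERCC8 had a log2 fold change of 0.27 ± 0.14 (adjusted p = 0.293), with a 95% interval of -0.04 to 0.58, and ERCC6 one of 0.12 ± 0.09 (adjusted p = 0.483). DDB1 and ERCC3 were the 2 genes whose treated and untreated knockout libraries did not overlap, where 31.6% of all genes did not, at log2 fold changes of -0.08 (adjusted p = 0.491) and 0.13 (adjusted p = 0.24). Median log2 fold changes of the 10 genes with hormone were -0.01 in wild type and -0.07 in knockout cells.

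The difference of the 2 hormone responses was tested directly and was called for ERCC8 and ERCC6, both higher in knockout cells, among 26.3% of all genes (13.8% higher and 12.5% lower). It was 0.72 ± 0.21 for ERCC8 (adjusted p = 0.0216) and 0.46 ± 0.13 for ERCC6 (adjusted p = 0.0168). Without untreated wild type replicate 3 both were still called, at 0.47 (adjusted p = 0.0094) and 0.31 (adjusted p = 0.0193). ERCC8 was lost without treated wild type replicate 2 (adjusted p = 0.0536), untreated knockout replicate 1 (0.0515) or treated knockout replicate 2 (0.0563), and ERCC6 without treated wild type replicate 3 (0.0558). The same contrast tests whether the gap between genotypes differed with hormone, since it is the same 4 group means in another order. For the other 8 genes it did not pass, with ERCC5 nearest at -0.21 ± 0.11 (adjusted p = 0.177).

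**Figure D2:**
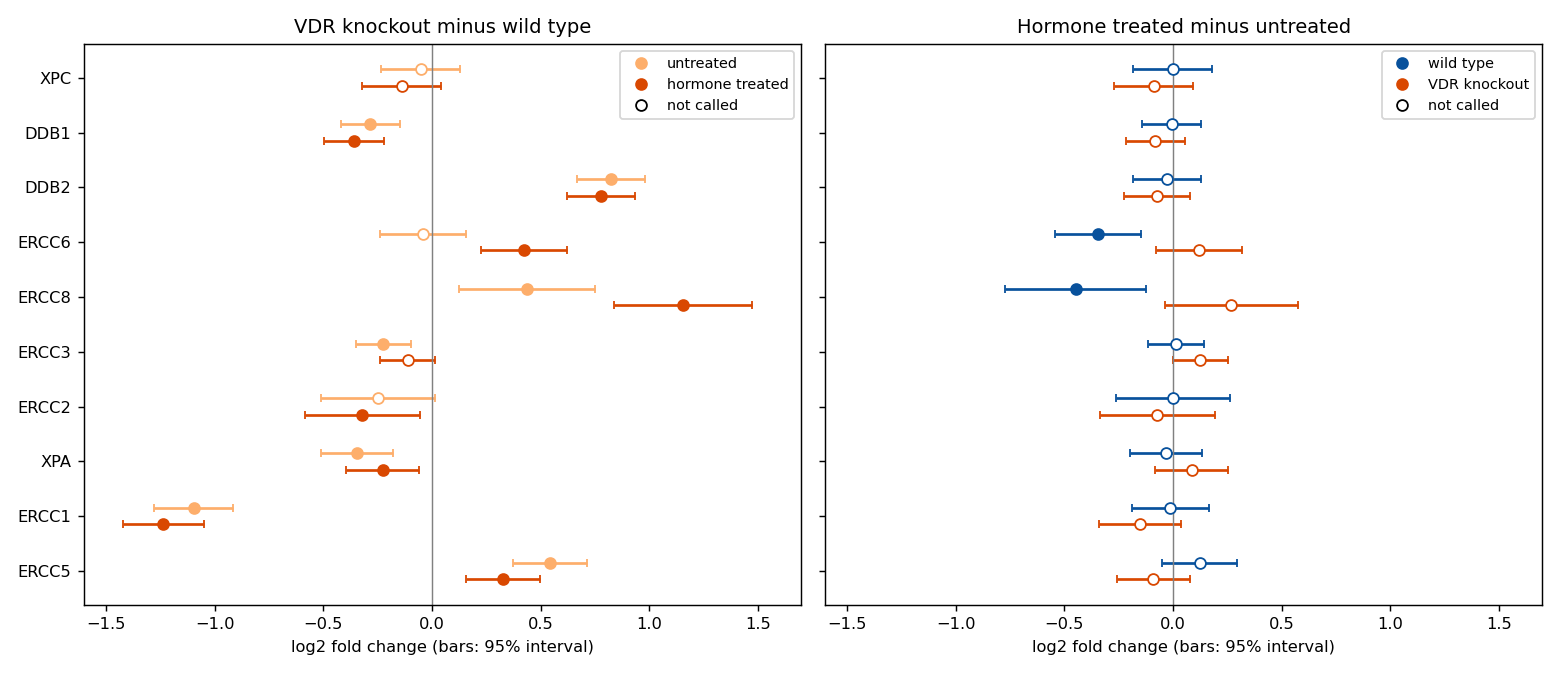
Log2 fold changes of the 10 genes with 95% intervals from the edgeR fit: left, knockout minus wild type without and with hormone; right, treated minus untreated in wild type and knockout cells; open circles did not pass the test. On the left DDB2 (0.82 and 0.78) and ERCC1 (-1.10 and -1.24) keep their values with and without hormone, while ERCC8 goes from 0.44 to 1.16; on the right ERCC6 and ERCC8 are the 2 filled points.

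The starts of ERCC8 and ERCC6 are shown because they carry the hormone contrast. Both stretches come from RefSeq (GRCh38.p14), read on the minus strand, for ERCC8 at chr5:60945074-60945128 and for ERCC6 at chr10:49539539-49539688. Capitals mark CCAAT boxes (CCAAT or its complement ATTGG) in ERCC8 and a GC box in ERCC6.
ERCC8: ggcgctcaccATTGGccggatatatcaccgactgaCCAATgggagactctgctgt
ERCC6: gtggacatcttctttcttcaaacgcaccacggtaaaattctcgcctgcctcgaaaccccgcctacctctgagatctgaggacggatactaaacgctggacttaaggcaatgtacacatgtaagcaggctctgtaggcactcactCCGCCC
A CCAAT box was in 34.6% of all windows and in those of 4 of the 10 genes (DDB2, ERCC1, ERCC2 and ERCC8). The receptor hexamer in the ERCC6 windows lies outside the stretch shown, and none was found in the ERCC8 window.

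ERCC3 and ERCC2 are the helicases of TFIIH, which opens the DNA around the lesion and also serves transcription. ERCC3 (chr2:127257290-127294176, minus strand) stood at 146, 140.0 and 145 CPM in wild type libraries without hormone and 144, 143 and 148 CPM with it. In knockout cells it stood at 122, 123 and 123 CPM untreated and 135, 135 and 133 CPM treated. The knockout libraries were below the wild type ones in both treatments. The difference was called without hormone (log2 fold change -0.22 ± 0.06, adjusted p = 0.00351) and not with it (-0.11 ± 0.06, adjusted p = 0.104), and the change of the gap with hormone did not pass (0.11 ± 0.09, adjusted p = 0.357). The untreated call was lost with library size alone or limma (-0.10 each, adjusted p = 0.165 and 0.161), and the treated difference was called by DESeq2 (-0.12, adjusted p = 0.0439) or with the 2 treated groups alone (-0.11, adjusted p = 0.0415).

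ERCC2 (chr19:45349837-45370918, minus strand) was the least expressed gene of the 10. It ran from 11.7 to 12.8 CPM without hormone and from 11.0 to 14.0 CPM in treated wild type libraries, and from 9.47 to 11.9 and from 9.27 to 10.5 CPM in knockout libraries. The untreated groups overlapped (log2 fold change -0.25 ± 0.12, adjusted p = 0.0837) and the treated ones did not (-0.32 ± 0.13, adjusted p = 0.0279). Without untreated knockout replicate 2 the first passed (-0.36, adjusted p = 0.0238). The second was lost with library size alone (-0.21, adjusted p = 0.132), with limma (-0.19, 0.14) and without treated wild type replicate 2 (-0.23, 0.134) or treated knockout replicate 1 (0.0896) or 2 (0.0655). KLC3, a kinesin light chain gene on the opposite strand that shares 8.29% of ERCC2's exon bases, was far lower in knockout cells (-2.35 and -2.63), and reads of the shared bases cannot be assigned to a strand from the sources used here.

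XPA, the scaffold protein that verifies the lesion, had the highest level of the 10. XPA (chr9:97674909-97697357, minus strand) stood at 178, 178 and 217 CPM in untreated and 179.9, 193 and 187 CPM in treated wild type libraries. In knockout cells it stood at 154, 149.9 and 148 CPM untreated and 168, 152 and 159 CPM treated. All knockout libraries lay below all wild type libraries. It was 1.27-fold lower without hormone (log2 fold change -0.34 ± 0.08, adjusted p = 0.000985), and -0.25 without wild type replicate 3 (adjusted p = 0.00119). With hormone it was 1.17-fold lower (-0.23 ± 0.08, adjusted p = 0.0157), a call lost with library size alone or limma (-0.12 each, adjusted p = 0.208 and 0.201) or without treated knockout replicate 2 (-0.19, adjusted p = 0.0693).

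ERCC1, the partner subunit of the nuclease that cuts before the lesion, showed the largest difference of the 10. ERCC1 (chr19:45407333-45478828, minus strand) stood at 42.7, 41.2 and 39.0 CPM in untreated and 42.3, 38.8 and 40.9 CPM in treated wild type libraries. In knockout cells it stood at 19.5, 20.1 and 17.9 CPM untreated and 18.0, 15.8 and 18.0 CPM treated. The highest knockout library was far below the lowest wild type library. ERCC1 was 2.14-fold lower in knockout cells without hormone (log2 fold change -1.10 ± 0.09, adjusted p = 9.4e-09) and 2.36-fold lower with it (-1.24 ± 0.09, adjusted p = 1.65e-09), and each alternative gave a called value between -1.29 and -0.94. Its nuclease partner ERCC4 was higher in knockout cells with hormone (0.24 ± 0.07, adjusted p = 0.00485) and did not pass without it (0.09 ± 0.07, adjusted p = 0.262). Of the bases of ERCC1's exons, 28.6% are shared with CD3EAP, a subunit gene of RNA polymerase I on the opposite strand. CD3EAP was lower in knockout cells by a like amount (-1.38 and -1.41), and how many reads of the shared bases belong to each gene was not tested.

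ERCC5 encodes the nuclease that cuts after the lesion. ERCC5 (chr13:102807146-102876001, plus strand) stood at 38.6, 36.6 and 41.8 CPM in untreated and 42.2, 41.7 and 43.7 CPM in treated wild type libraries. In knockout cells it stood at 58.4, 51.6 and 60.4 CPM untreated and 53.5, 56.0 and 50.6 CPM treated. Every knockout library was above every wild type library. It was 1.46-fold higher without hormone (log2 fold change 0.54 ± 0.08, adjusted p = 1.41e-05) and 1.25-fold higher with it (0.33 ± 0.08, adjusted p = 0.00141). The upstream gene BIVM shares 19.1% of ERCC5's exon bases on the same strand and was higher in knockout cells as well (0.78 and 0.40). The readthrough gene of the pair had at most 0.301 CPM in any library.

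**Figure D3:**
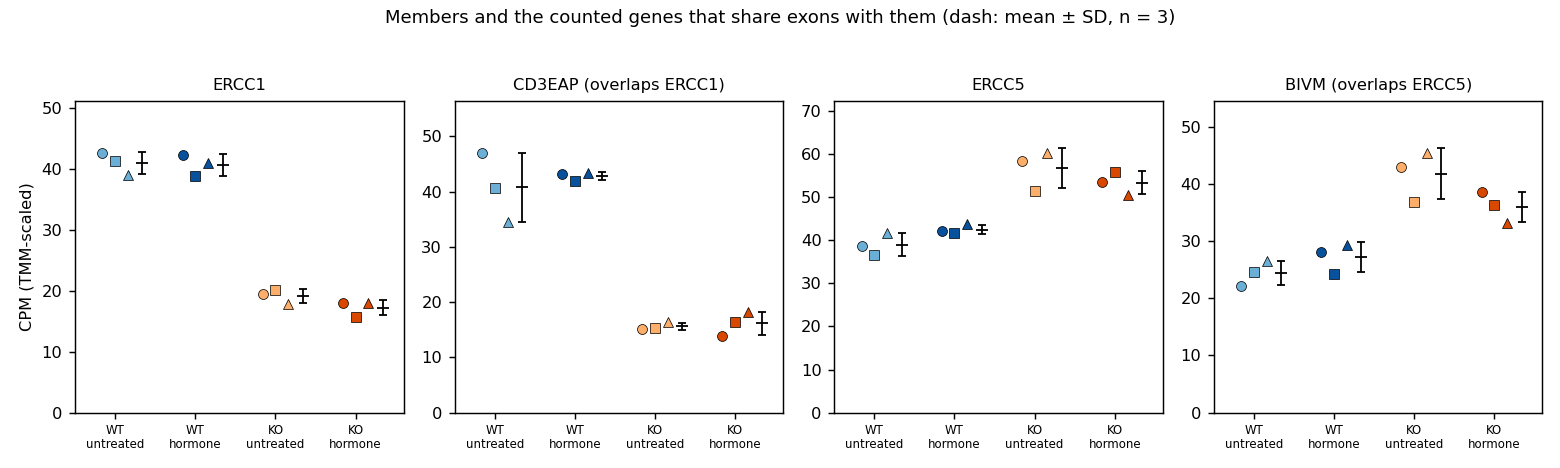
Level of ERCC1 and ERCC5 and of CD3EAP and BIVM, counted genes that share exon bases with them, in CPM scaled by TMM for each library, with group mean ± SD (n = 3). CD3EAP lies at 34.6 to 47.1 CPM in wild type and 13.9 to 18.1 CPM in knockout libraries, the direction of ERCC1, and BIVM at 22.2 to 29.3 and 33.1 to 45.5 CPM, the direction of ERCC5.

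The other genes of the pathway were taken as 42 further genes in 4 lists by role. All 42 were tested. Genes are named below by comparison, so a gene given for a single treatment may differ in the other as well. Without hormone 18 were higher and 14 lower in knockout cells, and with hormone 20 were higher and 16 lower, or 76.2% and 85.7% called beside the shares of 69.7% and 75.9% for all genes. With library size alone 22 were higher and 9 lower without hormone. Medians of the 42 were 0.15 and 0.23 on the log2 scale. With hormone 3 rose and 8 fell in wild type cells (26.2% called, beside 24.5% of all genes) and 0 rose and 4 fell in knockout cells (9.52%, beside 2.55%). The difference of responses was higher for 10 and lower for 3 (31.0%, beside 26.3%). Without untreated wild type replicate 3 the wild type counts were 2 and 7, and without treated replicate 3 they were 1 and 5. The 4 falls in knockout cells were 0 or 1 without untreated replicate 1 or 3 or any treated replicate.

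Of 12 partners of damage recognition 4 were higher and 5 lower without hormone and 2 higher and 8 lower with it (75% and 83.3% called, near the 69.7% and 75.9% of all genes). CUL4A, the ligase scaffold that DDB1 joins, was lower without hormone (-0.56 ± 0.06), and USP7, a deubiquitinase that works with ERCC6, lower with it (-0.68 ± 0.11). Without untreated wild type replicate 3, USP7 was lower in untreated knockout cells as well (-0.55).

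Of the 8 other TFIIH genes 3 were higher and 0 lower in knockout cells without hormone, and 5 higher and 1 lower with it, or 37.5% called against 69.7% of all genes and 75% against 75.9%. The kinase CDK7 and its cyclin CCNH form the part of TFIIH that phosphorylates RNA polymerase. CDK7 stood at 36.4, 36.6 and 49.0 CPM in untreated and 25.5, 26.6 and 26.7 CPM in treated wild type libraries, and at 50.0 to 61.7 and 64.9 to 68.5 CPM in knockout cells. No treated wild type library reached an untreated one. With hormone CDK7 fell in wild type cells by 0.63 ± 0.11 on the log2 scale (adjusted p = 0.000756; -0.47 without untreated replicate 3), did not pass in knockout cells (0.29 ± 0.10), and was 2.56-fold higher in treated knockout than treated wild type cells (1.35 ± 0.11, adjusted p = 6.13e-09). CCNH (-0.52 ± 0.11) and the TFIIH subunit GTF2H3 (-0.69 ± 0.14) also fell in wild type cells, and without untreated replicate 3 were at -0.32 and -0.54, both still called. RASA1, on the opposite strand, shares 12.7% of CCNH's exon bases. GTF2H4 went the other way, rising in wild type (0.48 ± 0.11) and falling in knockout cells (-0.55 ± 0.11), a fall that was lost when any 1 of 5 of its 6 libraries was left out; it shares 79.0% of its exon bases with VARS2 on the same strand. GTF2H2, which has near-identical copies in the genome, ran from 3.24 to 57.4 CPM with a wide spread within groups, and its counts are uncertain.

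The incision and single-strand binding partners (ERCC4, RPA1, RPA2 and RPA3) were higher in knockout cells for 3 of 4 genes without hormone and 4 of 4 with it, where 35.5% and 38.4% of all genes were higher. RPA3, a subunit of the protein that coats single-stranded DNA, stood at 20.1 to 21.0 CPM in untreated wild type and 35.4 to 36.9 CPM in untreated knockout libraries (0.82 ± 0.09, adjusted p = 3.98e-07).

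The 18 genes of gap filling and ligation, which also serve DNA replication, split into 8 higher and 9 lower without hormone and 9 higher and 7 lower with it (94.4% and 88.9% called, beside 69.7% and 75.9% of all genes). PCNA, the sliding clamp of DNA polymerases, was higher without hormone (0.69 ± 0.10). Of the genes of its loader, RFC5 (0.95 ± 0.08) and RFC4 (0.70 ± 0.07) were higher without hormone and RFC3 (1.15 ± 0.09) and RFC1 (1.05 ± 0.12) with it. Without untreated wild type replicate 3, RFC3 (0.68) and RFC1 (0.71) were higher in untreated knockout cells as well. RFC2 was lower without hormone (-0.23 ± 0.07) and higher with it (0.22 ± 0.07). The polymerase genes POLK (0.70 ± 0.13 without and 1.30 ± 0.13 with hormone) and POLE2 (1.19 ± 0.11 with it) were higher too. POLD1, the catalytic subunit of DNA polymerase delta, was lower, at 244 to 300.3 CPM in untreated wild type and 148 to 151 CPM in untreated knockout libraries (-0.91 ± 0.08 without and -1.21 ± 0.08 with hormone). POLD2 (-0.61 ± 0.07) and XRCC1 (-0.48 ± 0.11) were lower without hormone and POLD4 (-0.94 ± 0.10), which shares 21.3% of its exon bases with AP003419.11, with it.

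**Figure D4:**
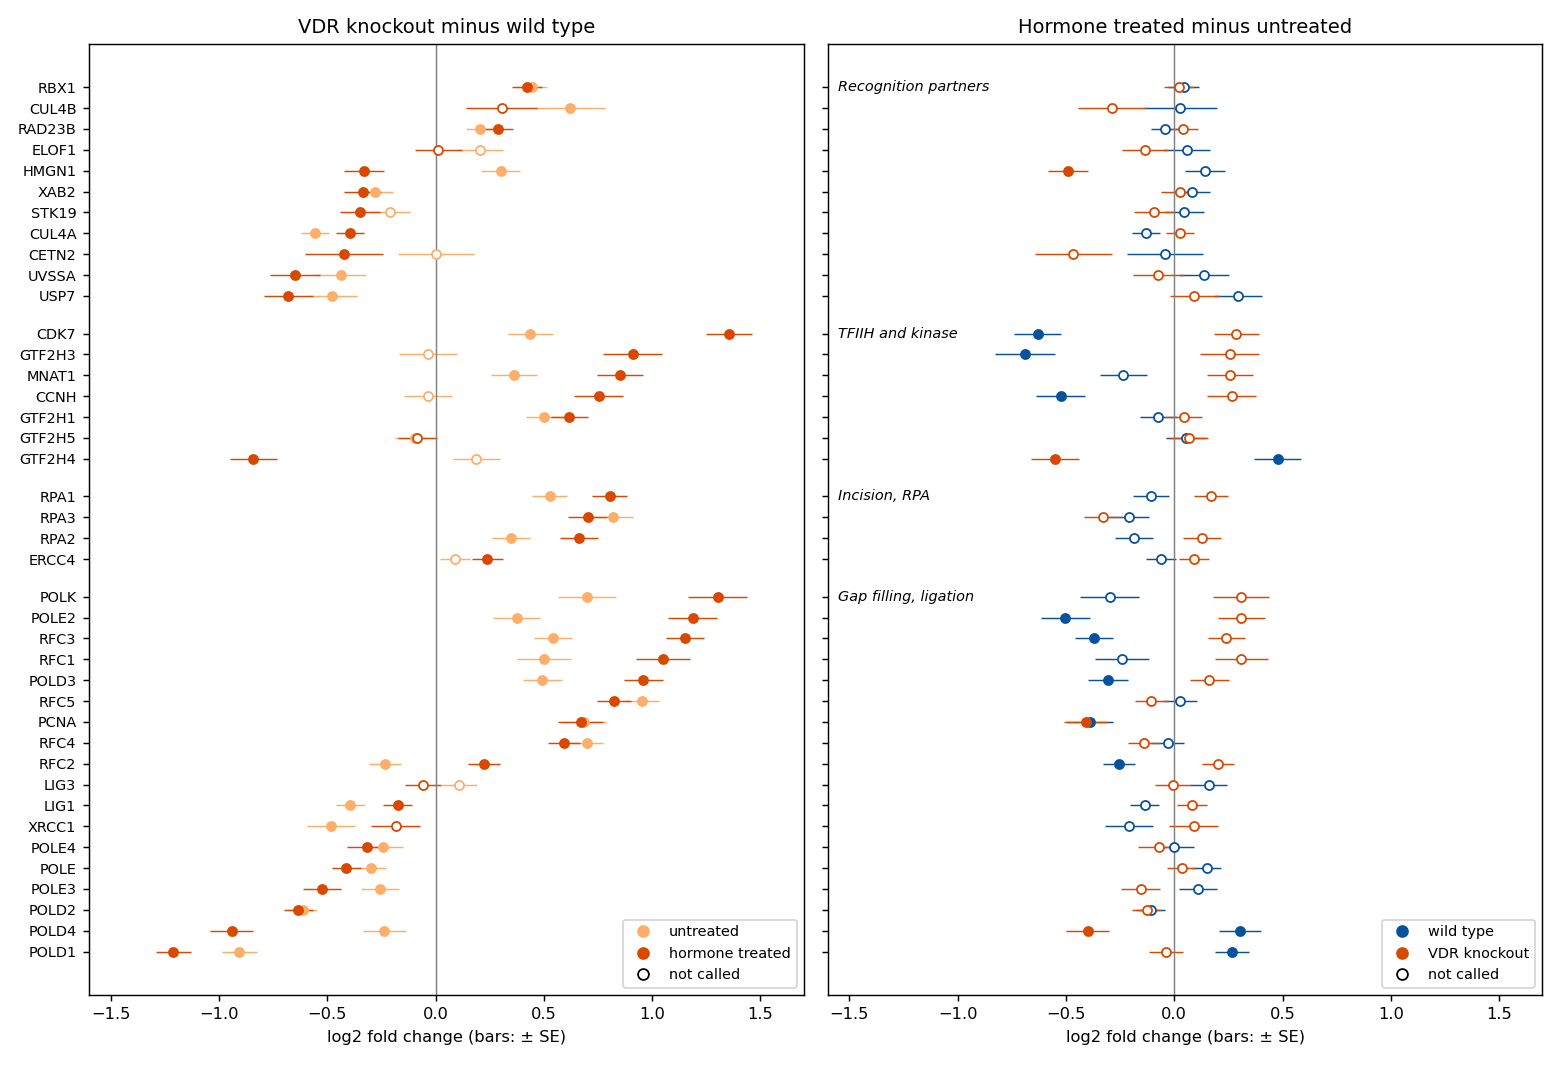
Log2 fold changes ± SE of 40 of the 42 other pathway genes by role (GTF2H2, with uncertain counts, is among those left out): left, knockout minus wild type without and with hormone; right, treated minus untreated in each genotype; open circles did not pass the test. CDK7 (1.35) and POLK (1.30) lie farthest to the right and POLD1 (-1.21) farthest to the left in the left panel; on the right, filled points of wild type cells lie on both sides and those of knockout cells, 4 in all, below 0.

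Related repair pathways were counted for comparison. Of 18 base excision repair genes 5 were higher and 8 lower in knockout cells without hormone and 5 higher and 10 lower with it (72.2% and 83.3% called). Of 8 mismatch repair genes 4 were higher and 1 lower without hormone and 6 higher and 0 lower with it (62.5% and 75%). Both lie near the 69.7% and 75.9% of all genes. With hormone in wild type cells 1 base excision repair gene rose and 0 fell (5.56% called), and 0 mismatch repair genes rose and 2 fell (25%). Of all genes 24.5% were called in that comparison, 11.5% higher and 13% lower.

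The authors' deposited table for genes raised between treated wild type and treated knockout cells lists the gene ontology term DNA repair with 227 genes and the authors' adjusted p of 4.16e-05. It holds DDB2, ERCC6, ERCC8 and ERCC5, the 4 genes called higher here, and 20 of the 42 other genes. The authors' deposited table for the untreated comparison lists protein-DNA complex assembly with 91 genes, among them DDB2 and ERCC5 (the authors' adjusted p = 5.42e-06), and protein polyubiquitination with 105 genes, among them DDB2 and ERCC8 (0.00799). The authors' deposited table for that comparison also lists DNA repair complex assembly with 8 genes (the authors' adjusted p = 0.0445), none of them among the 10. Both were made from the same libraries and are not independent evidence. In bulk RNA, fewer cells that express a gene and less RNA per cell cannot be told apart.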

How the data were processed

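Total RNA of 12 HaCaT libraries was sequenced, 3 for each of 4 groups taken from the labels. The authors deposited raw counts per gene and, in a second table, CPM (counts per 1e6 counts), which equal the counts divided by each library's total. The authors' deposited enrichment tables give for each gene ontology term a p-value with its adjusted p, and other values (Count, how many listed genes the term holds), per the file headers. The submitters' processing notes name BWA 0.5.9 and mm9, which is a mouse build, whereas the gene IDs are human. Thus neither the build, the counting tool nor the strand setting is given in the sources used here.

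Counts were analysed in R 4.3.3 with edgeR 4.0.16: TMM scaling (factors 0.95 to 1.057), the filterByExpr filter (14676 of 16271 genes kept, all 10 members among them) and 1 robust quasi-likelihood fit of the 4 group means over 12 libraries. P-values were adjusted by Benjamini-Hochberg over all genes in each of 5 comparisons and called below 0.05. Values after ± are SE beside log2 fold changes, derived from the F statistic, and SD beside CPM. Intervals cover 95%. The script was tested on simulated data. Positions and overlaps come from GENCODE v29 (GRCh38), which held 15524 of the IDs, and promoter windows from RefSeq (GRCh38.p14).

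The members and gene lists were chosen with earlier results of these data known. All 10 members are named. Of the 42 other pathway genes, the rule names at most the 5 largest rises and falls per comparison among those called with no overlap between libraries, and 1 gene it names is not reported here. CYP24A1, DSG3, CDH1, ERCC4, GTF2H2, RFC2 and the genes overlapping a named gene were named after their values were seen. Alternatives were other scalings, filters, DESeq2 1.42.0, limma 3.58.1 on log2 CPM with a pseudocount of 1, an adjusted p below 0.01, the compared groups alone, a replicate block, and each library left out.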

Additional observations from a re-analysis of the deposited data

Results flagged for a closer look

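The difference between the 2 hormone responses (knockout minus wild type, edgeR quasi-likelihood, adjusted p below 0.05) was called for 2 of the 10 members and for 10 higher and 3 lower of the 42 other pathway genes (20% and 31.0%, near the 26.3% of all genes). ERCC8 (0.72 on the log2 scale) and ERCC6 (0.46), the sensors of stalled polymerase, were lower in treated than untreated wild type cells, a call that both lost without untreated wild type replicate 3. GTF2H3 (0.94), CDK7 (0.92) and CCNH (0.79) of TFIIH had the same sign, as did POLE2 (0.81), RFC3 (0.61), POLK (0.60) and RFC1 (0.55), which serve DNA synthesis. GTF2H4 (-1.03), POLD4 (-0.70) and HMGN1 (-0.63) had the opposite one. GTF2H3, CDK7, CCNH, POLE2, RFC3, GTF2H4, POLD4 and HMGN1 were called in each of 12 refits with 1 library left out. POLK and RFC1 each lost the call in 7 of the 12; without untreated wild type replicate 3 POLK was at 0.52 (adjusted p = 0.118) and RFC1 at 0.33 (adjusted p = 0.0172). Untreated wild type replicate 3 had the highest value of its group for ERCC6, ERCC8, GTF2H3, CDK7, CCNH, POLE2, RFC3 and RFC1, and its part in the size of these differences was not tested beyond leaving it out. The difference was also called for VDR (0.64), for its target CYP24A1 (-5.60) and for LSM3 (0.49), which overlaps XPC.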

How the results depend on the processing

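The members' values kept their direction wherever they were called. Of the alternatives other than leaving out a library, 421 of 440 member values stayed on their side of the threshold, 17 lost a call and 2 gained one; with 1 library left out 342 of 360 stayed, 17 lost and 1 gained. Lower members with hormone in wild type cells numbered 1 with library size alone, 1 with limma, 0 with the compared groups alone, 0 at an adjusted p below 0.01, and 0 to 2 with 1 library left out. Lower members in treated knockout cells numbered 2 with library size alone, with limma and below 0.01, and 2 to 4 with 1 library left out. Members with a higher difference of responses numbered 0 below 0.01 and 1 to 2 with 1 library left out.

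For the 42 other genes, with hormone in wild type cells 1 rose with the compared groups alone and 1 rose and 5 fell below 0.01; with 1 library left out 1 to 4 rose and 5 to 10 fell. In untreated knockout cells 9 were lower with library size alone and with limma. In knockout cells with hormone 7 rose with the compared groups alone, 0 fell below 0.01, and 0 to 4 fell with 1 library left out. Differences of responses were higher for 6 below 0.01, and with 1 library left out higher for 7 to 12 and lower for 3 to 5.

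Over all genes, hormone calls in wild type cells were 1092 higher and 1126 lower with the compared groups alone, 816 and 994 below 0.01, and 1010 to 1825 and 1102 to 1970 with 1 library left out. In knockout cells they were 98 higher and 392 lower with library size alone (20% higher, against 35.8%), 399 and 508 with DESeq2, 369 lower with limma, 833 and 942 with the compared groups alone, 0 and 36 below 0.01, and 0 to 66 and 8 to 212 with 1 library left out. Differences of responses were 1047 and 874 below 0.01, and 1427 to 2231 and 1319 to 2091 with 1 library left out.

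With the replicate number as a block, 37 genes rose and 106 fell in knockout cells with hormone, 2 of the other pathway genes among the falls, and no call of a member changed. The numbers do not pair the libraries: deviations of the 18 same-numbered pairs correlated at -0.18 to 0.12, 1 of them over 0.1. Small changes of ERCC2 are limited by its counts of 118 to 180 per library.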

Other observations

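Genes near the members were counted after the values were seen. Of all genes, 69.7% were called in the untreated comparison of genotypes, 35.5% higher and 34.2% lower. The counts below include genes that share exons with a member: CD3EAP with ERCC1, KLC3 with ERCC2, BIVM with ERCC5, TKFC with DDB1 and LSM3 with XPC. Within 250 kb of ERCC1 there were 17 other tested genes, of which 4 were higher and 9 lower in untreated knockout cells (median log2 fold change -0.21, against 0.01 for all genes). Within 250 kb of ERCC2, which lies on the same stretch of chromosome 19 and shares neighbours with it, 2 of 13 were higher and 9 lower (median -0.43), and with hormone the median was -0.85. Within 250 kb of ERCC5 3 of 4 were higher and 0 lower (median 0.57, and 0.38 with hormone). Around XPA and ERCC3, both lower in untreated knockout cells, the medians were higher than that of all genes: 3 of 6 higher and 2 lower for XPA (median 0.21, and 0.51 with hormone), and 3 of 6 higher and 1 lower for ERCC3 (0.41, and 0.30 with hormone). Around DDB2 3 of 10 were higher and 5 lower (median -0.06), around DDB1 4 of 9 and 4 (0.15), around ERCC8 2 of 5 and 1 (0.10) and around XPC 2 of 5 and 2 (-0.02). Near DDB1, RP11-286N22.8 and SDHAF2 had identical values (0.64 each), so 1 set of reads may stand there as 2 genes. The median with this pair counted once was not tested. ERCC6 had no other tested gene that near.

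Genes whose log2 CPM most closely followed the members with the largest rise and the largest fall in untreated knockout cells over the 12 libraries were PIK3R3, BLOC1S6 and SQRDL for DDB2 (Pearson's r 0.996 each) and VPS4A, PKP3 and ALKBH4 for ERCC1 (0.995 each). Since the genotypes separate the libraries, 1551 genes had r above 0.95 with DDB2 and 1566 with ERCC1. With group means removed r was 0.88 to 0.89 for the first set and 0.62 to 0.80 for the second.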
